A study of Mus musculus with 4 samples.

Results

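Interferon-induced genes were described in 4 sorted populations of mouse intestinal tumour cells. They are 40 genes that interferons are known to switch on, named as a list rather than picked by a limit on their levels. The list was chosen with earlier results of these data known. Each gene was represented by its brightest probe, the one with the highest mean processed signal among the probes whose accession belongs to the gene. Of the 40 genes, 37 had such a probe, out of 22911 genes named on the array. The list was divided into 26 genes known mainly as targets of type I interferon, 11 known mainly as targets of interferon gamma, and 3 Ifitm genes, which both kinds of interferon induce. No probe was matched to Mx1, Mx2 and Ifitm2, which were not analysed here. RefSeq lists the mouse Mx1 and Mx2 genes as transcribed pseudogenes.

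RNA came from EpCAM+ epithelial cells of intestinal tumours, collected 14 days after tamoxifen. The mice had the genotype Lgr5CreERT2/+; Ctnnb1lox(ex3)/ox(ex3), which all populations share. In these mice a tamoxifen-activated Cre, expressed from the locus of the stem cell receptor Lgr5, removes a loxP-flanked exon of the beta-catenin gene Ctnnb1 and leaves a stabilised protein, so all populations come from tumours started in Lgr5-expressing cells. The cells were sorted by Lgr5 and by a tuft cell marker, named in the series as the cytokine receptor subunit IL17RB. Among Lgr5+ cells this gave a tuft marker+ and a tuft marker- population, and among Lgr5- cells likewise. Each population was measured on 1 one-colour Agilent array from 13 ng of total RNA. With no replicates there was no test, and every difference below describes these 4 arrays. The sources used here give neither the number of animals pooled nor their age nor the intestinal region.

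Type I interferons bind the receptor pair Ifnar1 and Ifnar2 and act through a complex that contains Stat2 and Irf9 and binds the interferon-stimulated response element (ISRE) in target promoters. Interferon gamma binds Ifngr1 and Ifngr2 and acts through the gamma-activated site (GAS), and many target genes answer to both. In the gut lining these genes are known for antiviral defence and for the destruction of microbes inside cells.

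The promoters of 6 genes are shown because these genes, 3 of each class, were among those at least 2-fold higher with the tuft marker in both Lgr5 classes, as described further on. Each window runs 5′ to 3′ on the gene's strand and ends 50 bases after the RefSeq transcription start (RefSeq, GRCm38.p6), with the ISRE core (GAAA, any 2 bases, GAAA) and the GAS letters TTCNNNGAA in capitals wherever they occur on either strand. The first 3 genes are type I-led, namely Rsad2 at chr12:26456403-26456702 on the minus strand, Trim30a at chr7:104465144-104465443 on the minus strand and Isg15 at chr4:156200769-156201068 on the minus strand. The others are interferon gamma-led and lie on the plus strand, namely Gbp2 at chr3:142620413-142620712, Gbp3 at chr3:142559794-142560093 and Gbp7 at chr3:142530086-142530385.
Rsad2: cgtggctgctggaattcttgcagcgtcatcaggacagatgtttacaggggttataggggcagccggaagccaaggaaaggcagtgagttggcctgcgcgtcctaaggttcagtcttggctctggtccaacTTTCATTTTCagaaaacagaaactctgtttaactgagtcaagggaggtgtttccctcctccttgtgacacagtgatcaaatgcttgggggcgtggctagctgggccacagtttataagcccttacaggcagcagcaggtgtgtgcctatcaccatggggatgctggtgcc
Trim30a: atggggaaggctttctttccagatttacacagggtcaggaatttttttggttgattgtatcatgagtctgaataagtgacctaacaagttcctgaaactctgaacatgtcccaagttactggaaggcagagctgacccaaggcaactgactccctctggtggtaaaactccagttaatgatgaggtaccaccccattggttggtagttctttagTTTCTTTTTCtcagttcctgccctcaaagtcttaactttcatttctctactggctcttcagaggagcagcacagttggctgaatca
Isg15: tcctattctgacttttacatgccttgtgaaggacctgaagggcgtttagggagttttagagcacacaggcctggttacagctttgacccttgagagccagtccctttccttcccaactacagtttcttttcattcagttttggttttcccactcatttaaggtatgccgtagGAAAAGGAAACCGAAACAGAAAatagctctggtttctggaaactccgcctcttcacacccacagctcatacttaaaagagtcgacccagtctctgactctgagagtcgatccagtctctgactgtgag
Gbp2: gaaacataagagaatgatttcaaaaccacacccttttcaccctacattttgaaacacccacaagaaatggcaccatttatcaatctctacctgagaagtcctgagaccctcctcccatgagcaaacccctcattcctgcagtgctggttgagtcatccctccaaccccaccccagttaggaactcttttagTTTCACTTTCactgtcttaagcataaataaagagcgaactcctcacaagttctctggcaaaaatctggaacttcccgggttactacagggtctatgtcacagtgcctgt
Gbp3: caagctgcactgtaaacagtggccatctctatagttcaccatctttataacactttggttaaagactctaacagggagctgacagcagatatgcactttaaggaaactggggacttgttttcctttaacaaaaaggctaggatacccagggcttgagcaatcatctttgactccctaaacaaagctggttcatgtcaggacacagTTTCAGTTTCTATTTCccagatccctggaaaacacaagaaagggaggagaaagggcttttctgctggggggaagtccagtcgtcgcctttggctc
Gbp7: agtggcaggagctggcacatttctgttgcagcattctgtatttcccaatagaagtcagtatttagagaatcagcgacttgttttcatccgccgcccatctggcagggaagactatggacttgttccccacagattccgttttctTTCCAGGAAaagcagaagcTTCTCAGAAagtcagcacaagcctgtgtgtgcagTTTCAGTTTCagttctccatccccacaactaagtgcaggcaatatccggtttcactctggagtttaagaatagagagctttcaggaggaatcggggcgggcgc

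Each of the 6 windows holds the ISRE core, and only that of Gbp7 among them holds the GAS letters. Trim30a and Gbp3 have a second window each, not shown, with 1 core for Trim30a and none for Gbp3. In Isg15 there are 3 overlapping cores that begin 78, 72 and 66 bases before the start. In Gbp3 there are 2 overlapping ones, at 45 and 39 bases before it. The single cores of Rsad2, Gbp2, Gbp7 and Trim30a begin 120, 59, 53 and 36 bases before the start. Gbp7 has GAS letters at 106 and 87 bases before its start.

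Windows were found for 30 of the 40 genes, 36 windows in all. The ISRE core stood in 19 of these 36 windows (52.8%), against 3.44% of all 32851 windows of the same length. The GAS letters stood in 10 of them (27.8%), against 8.30% of all windows. By class, the ISRE core was in 11 of 22 type I-led windows and in 6 of 11 interferon gamma-led ones. The GAS letters were in 4 of 22 and in 5 of 11 of them. A match describes the letters only, and these shares were not compared by a test.

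The sorted markers followed the labels. Within Lgr5+, Il17rb was 2.75 higher on the log2 scale in tuft marker+ cells, and at least 3.80 higher within Lgr5-. Lgr5 itself was at least 2.88 higher in the Lgr5+ cells within tuft marker+, and 2.39 higher within tuft marker-. Between 60.1% and 68.9% of the spots were well above background on the 4 arrays. A level is the log2 signal minus the 75th percentile of its array, so 0 is a fairly bright probe, and levels below about -3.4 to -3.9 were at the limit of detection. Levels of different genes come from different probes and are not compared with each other. A gene was measured in a pair of arrays if its brightest probe was well above background on at least 1 of them. A value below background was raised to the array's detection limit, and the difference is then given as "at least". Errors are those of the scanner software, with a median of 0.21, and cover the reading of the spots only.

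On their brightest probes, 31 of 36 interferon-induced genes were above 0 for tuft marker+ over tuft marker- cells in each Lgr5 class, and none was 2-fold lower. The share of all genes above 0 is not given here. Of 36 measured genes, 20 (55.6%) were at least 2-fold higher in Lgr5+ tuft marker+ than in Lgr5+ tuft marker- cells, where 10.5% of all measured genes were. In Lgr5- tuft marker+ against Lgr5- tuft marker- cells, 17 of 36 (47.2%) were at least 2-fold higher, where 16.5% of all genes were. Being 2-fold lower applied to 8.25% and 12.4% of all genes in these pairs. The median difference of the 36 was 1.12 within Lgr5+ and 0.87 within Lgr5-, beside -0.02 and 0.08 for all genes. In a sorted sample a smaller number of expressing cells and less RNA in each cannot be told apart.

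In both pairs at once, which share no array, 12 of the 36 genes (33.3%) were at least 2-fold higher, where 4.84% of all genes were. They were the type I-led Isg15, Rsad2, Oas2, Oas3, Oasl2, Trim30a and Rtp4, the interferon gamma-led Gbp2, Gbp3, Gbp7 and Iigp1, and Ifitm1. Another 8 genes passed 2-fold within Lgr5+ alone and 5 within Lgr5- alone. The shares of all genes passing in a single pair alone are not given here, so neither count is set against all genes. Of all measured genes, 10.5% passed within Lgr5+ and 16.5% within Lgr5-, whether or not they passed in the other pair. A gene could enter through the array on which it was bright, so the counts were also taken over the 30 genes above background on all 4 arrays. Of these, 16 were 2-fold higher within Lgr5+ and 12 within Lgr5-, where 8.54% and 12.9% of all such genes were, and 9 were so in both pairs, where 3.25% were. After the normexp background correction, run with an offset of 50 on the median spot signal, 11 and 8 of the 36 were 2-fold higher, beside 3.81% and 5.32% of all genes.

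**Figure D1:**
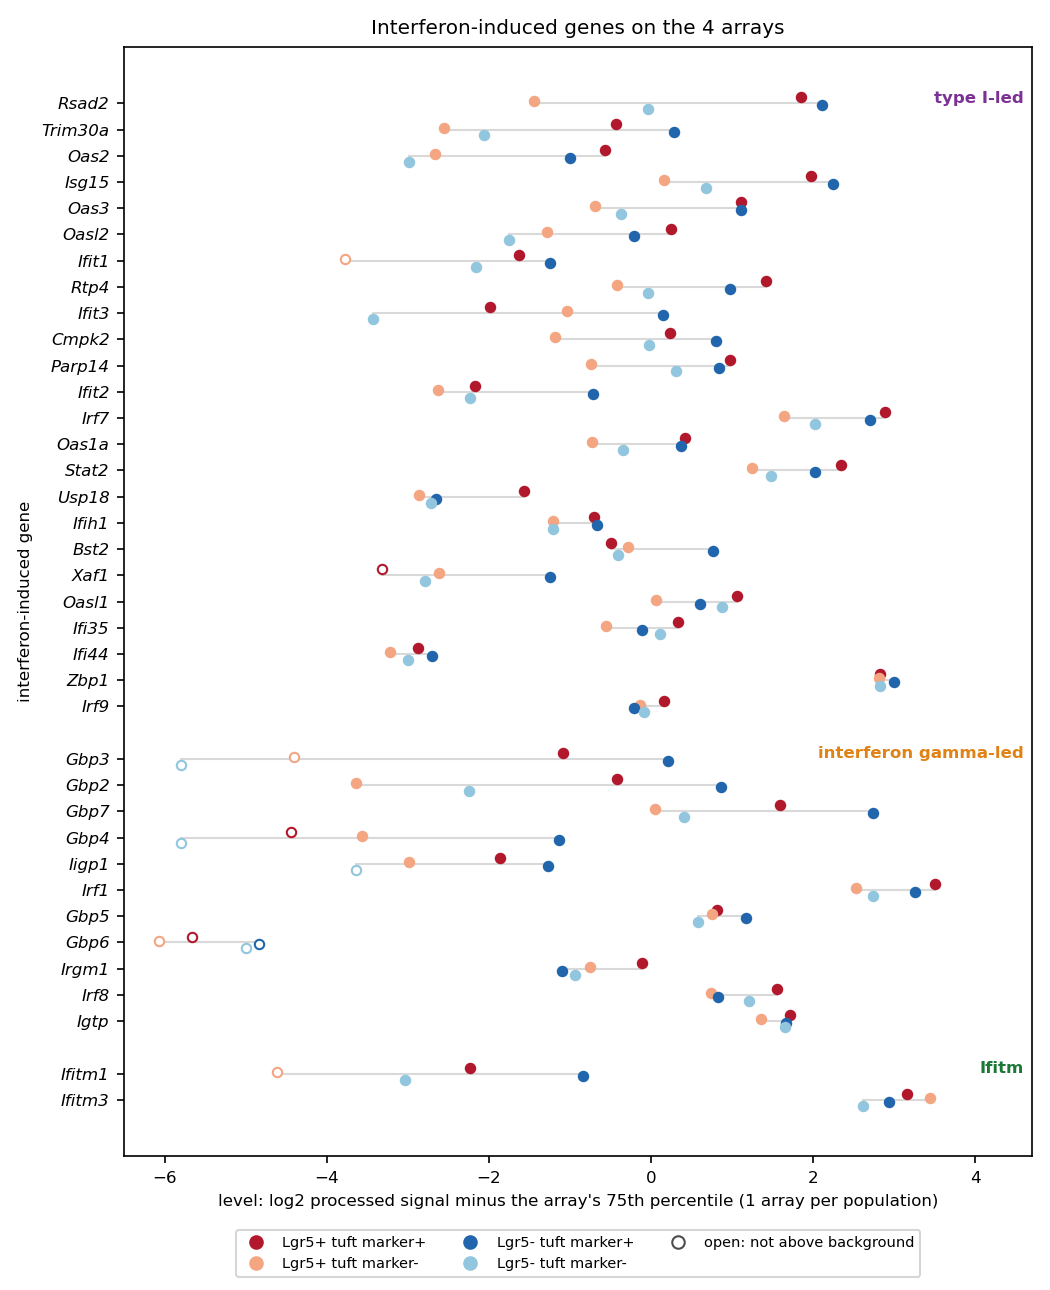
Levels of the 37 interferon-induced genes with a probe, as log2 signal minus the 75th percentile of the array, with 1 point per population and open points where the probe was not well above background. Genes are grouped by class and ordered by their summed tuft marker difference, and a tuft marker+ point is the rightmost for all but Ifitm3 of the 30 genes with 4 filled points.

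Over the 30 genes above background on all 4 arrays, the highest level was in Lgr5+ tuft marker+ cells for 15 genes, in Lgr5- tuft marker+ cells for 14, where these arrays were highest for 23.8% and 29.8% of all genes. For 1 gene, Ifitm3, it was in Lgr5+ tuft marker- cells, the highest array for 18.6% of all genes. No gene of the 30 was highest in Lgr5- tuft marker- cells, the array that was highest for 27.8% of all genes. The lowest level was in Lgr5+ tuft marker- cells for 21 of the 30, the array that was lowest for 20.9% of all genes. It was in Lgr5- tuft marker- cells for 6, where 23.1% of all genes were lowest, in Lgr5- tuft marker+ cells for 2 (34.2%) and in Lgr5+ tuft marker+ cells for 1 (21.9%). From lowest to highest array the 30 genes spanned a median of 1.25 on the log2 scale, beside 0.94 for all genes. The span ran from 0.19 for Zbp1, a sensor of Z-form nucleic acid, to 4.49 for Gbp2.

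Markers of some other cell types moved with the tuft marker too. In these pairs 10.5% (within Lgr5+) and 16.5% (within Lgr5-) of all genes were 2-fold higher. Of 18 macrophage and monocyte markers, 13 (72.2%) were at least 2-fold higher in Lgr5+ tuft marker+ than in Lgr5+ tuft marker- cells, and 14 (77.8%) in Lgr5- tuft marker+ than in Lgr5- tuft marker- cells. Their median level was 1.79 in Lgr5+ tuft marker+ cells and -2.20 in Lgr5+ tuft marker- cells, and 2.70 in Lgr5- tuft marker+ cells and -1.21 in Lgr5- tuft marker- cells. Adgre1, which encodes the macrophage protein F4/80, was at least 5.44 higher within Lgr5+ and 5.11 higher within Lgr5-, and the lysosomal gene Cd68 was 2.07 and 2.97 higher. All 18 were above background on both tuft marker+ arrays. In Lgr5+ tuft marker- cells Adgre1, C1qa, C1qc, Fcgr1, Ccr2 and Mertk were not above background, and in Lgr5- tuft marker- cells Mrc1 was not. Summed over the list, in units of each array's 75th percentile, the signal was 728 in Lgr5+ tuft marker+ and 547 in Lgr5+ tuft marker- cells, and 796 in Lgr5- tuft marker+ and 621 in Lgr5- tuft marker- cells. Itgam alone gave 81.3% to 93.9% of these sums, and it differed by 0.35 within Lgr5+ and 0.15 within Lgr5-.

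Stromal markers behaved likewise, with 5 of 6 measured genes 2-fold higher within Lgr5+ and all 9 of 9 in the Lgr5- pair. Their summed signal was 11.7 in Lgr5+ tuft marker+ and 1.61 in Lgr5+ tuft marker- cells, and 37.4 in Lgr5- tuft marker+ and 1.92 in Lgr5- tuft marker- cells. Vim, for the filament protein vimentin, was 4.69 and 5.09 higher, and the collagen gene Col1a1 at least 3.69 and at least 5.43 higher. Lum, Pdgfra and Pdgfrb were above background in Lgr5- tuft marker+ cells only. Tuft cell markers were 2-fold higher for 15 of 18 and 16 of 19 genes, among them the kinase gene Dclk1 (3.49 and 3.93) and the transcription factor gene Pou2f3 (1.45 and 2.65).

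Of the lymphoid lists, T and NK cell markers were 2-fold higher for 1 of 12 measured genes within Lgr5+ and 5 of 13 within Lgr5-. For this and the next lists, 10.5% and 16.5% of all genes were higher in these pairs, and 8.25% and 12.4% lower. Their summed signal was 21.9 in Lgr5+ tuft marker+ and 31.6 in Lgr5+ tuft marker- cells, and 54.9 in Lgr5- tuft marker+ and 22.3 in Lgr5- tuft marker- cells. The T cell receptor component Cd3d was above background on no array, and Cd3e differed by -0.95 and 0.75. B and plasma cell markers were 2-fold higher for 1 of 6 and 3 of 7 genes, with Cd79a at 0.16 within Lgr5-. Dendritic cell markers were 2-fold higher for 1 of 9 and 5 of 11 genes, and 2-fold lower for 2 and 0. Their first genes were Itgax, at least 4.34 and at least 4.59 higher, and Flt3, at -1.35 and 0.44, and the list shares Bst2 and Irf8 with the interferon-induced genes. Endothelial markers were 2-fold higher for 0 of 2 and 3 of 4 genes, and 2-fold lower for 1 and 0. Pecam1 was at -0.40 and 1.96, and Cdh5 was above background only in Lgr5- tuft marker+ cells. Of 12 epithelial markers 2 were higher within Lgr5+, and 1 was higher and 3 lower within Lgr5-, where Epcam was lower by 1.04 and Cdh1 by 0.93. Stem cell markers were 2-fold higher for none of 8 genes in either pair and 2-fold lower for 1 and 4. The sort required EpCAM on the cells. The part of these cell types in the differences of the interferon-induced genes was not tested.

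**Figure D2:**
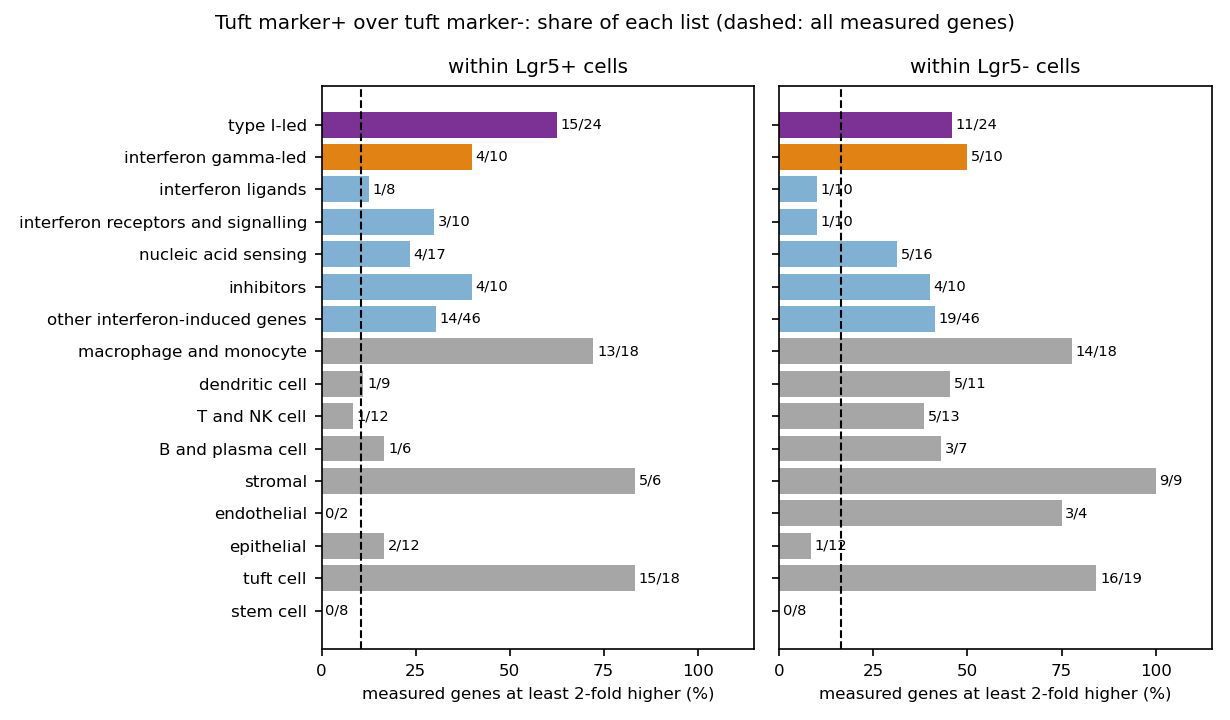
Share of the measured genes of each list that were at least 2-fold higher with the tuft marker, among Lgr5+ cells (left) and among Lgr5- cells (right), for tuft marker+ over tuft marker- cells, with the counts beside the bars and a dashed line at the share of all measured genes (10.5% and 16.5%). Purple and orange bars are the interferon-induced genes by class, blue bars other genes of the interferon pathway and grey bars cell type markers; macrophage, stromal and tuft cell markers had the longest bars in both panels.

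Type I-led genes made up 7 of the 12 genes higher in both pairs, and 24 of the 36 measured genes. Isg15, a ubiquitin-like protein joined to other proteins during viral infection, stood at 1.97 in Lgr5+ tuft marker+ and 0.16 in Lgr5+ tuft marker- cells, and at 2.25 in Lgr5- tuft marker+ and 0.68 in Lgr5- tuft marker- cells. Both tuft marker+ arrays were above both tuft marker- arrays, by 1.81 (error 0.21) within Lgr5+ and 1.57 (error 0.20) within Lgr5-, or 3.51-fold and 2.96-fold. Rsad2 encodes viperin, an enzyme whose product stops viral RNA chains. It stood at 1.85 in Lgr5+ tuft marker+ and -1.44 in Lgr5+ tuft marker- cells, and at 2.11 in Lgr5- tuft marker+ and -0.04 in Lgr5- tuft marker- cells. These differences, 3.29 (error 0.21) and 2.15 (error 0.21), were the largest among type I-led genes above background on all 4 arrays within Lgr5+ and the third largest within Lgr5-. A second, dimmer Rsad2 probe gave -0.83 within Lgr5+ and 0.99 within Lgr5-, so its direction within Lgr5+ depends on the probe, and the second probe was under 2-fold within Lgr5-.

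The oligoadenylate synthetases make short adenylate chains that activate the nuclease RNase L. Oas2 stood at -0.57 in Lgr5+ tuft marker+ and -2.67 in Lgr5+ tuft marker- cells, and at -0.995 in Lgr5- tuft marker+ and -2.99 in Lgr5- tuft marker- cells. Its differences were 2.10 (error 0.25) and 1.99 (error 0.28). Oas3 stood at 1.10 in Lgr5+ tuft marker+ and -0.70 in Lgr5+ tuft marker- cells, and at 1.11 in Lgr5- tuft marker+ and -0.37 in Lgr5- tuft marker- cells. The neighbouring genes Oas2 and Oas3 were thus both higher with the tuft marker, Oas3 by 1.80 (error 0.21) and 1.48 (error 0.21). Oasl2, a relative of these enzymes, stood at 0.25 in Lgr5+ tuft marker+ and -1.29 in Lgr5+ tuft marker- cells, and at -0.21 in Lgr5- tuft marker+ and -1.75 in Lgr5- tuft marker- cells. Its differences of 1.54 and 1.55 (errors 0.21 and 0.23) were the most alike of the 12. Its direct neighbour Oasl1 had 1.004 and -0.27.

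Trim30a, a member of the tripartite motif family, stood at -0.43 in Lgr5+ tuft marker+ and -2.56 in Lgr5+ tuft marker- cells, and at 0.28 in Lgr5- tuft marker+ and -2.06 in Lgr5- tuft marker- cells. Its differences were 2.13 (error 0.26) and 2.35 (error 0.24). Rtp4, a receptor transporter protein, stood at 1.42 in Lgr5+ tuft marker+ and -0.42 in Lgr5+ tuft marker- cells, and at 0.97 in Lgr5- tuft marker+ and -0.04 in Lgr5- tuft marker- cells. Its difference within Lgr5- was 1.01 (error 0.21), just inside the 2-fold limit, and 0.77 with arrays scaled to their median. Within Lgr5+ it was 1.84 (error 0.21).

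The other type I-led genes passed the 2-fold limit in 1 Lgr5 class or in neither. Ifit1, Oas1a, Oasl1, Irf7, Stat2, Usp18, Parp14 and Cmpk2 passed 2-fold within Lgr5+ alone, from 1.004 for Oasl1 to at least 2.15 for Ifit1, an antiviral RNA-binding protein. Ifit2, Ifit3, Bst2 and Xaf1 passed it within Lgr5- alone, from 1.17 for Bst2, which tethers budding virus to the cell, to 3.57 for Ifit3. Irf9, Ifi35, Ifi44, Ifih1 and Zbp1 passed it in neither pair, with differences between -0.22 and 0.88. These groups were named after their values were seen, and they rest on the 2-fold limit. On their brightest probes, all those passing within Lgr5+ alone, except Oasl1, were also above 0 within Lgr5-. Where these genes had a second probe, it gave 0.22 within Lgr5+ and -0.55 within Lgr5- for Parp14, and -1.09 and -0.10 for Stat2. The second probes of Oasl1 gave 1.48 and 0.23, and those of Irf7 0.995 and 0.87. With the authors' values Ifit1, Oas1a and Cmpk2 passed in both pairs. The mean of both Xaf1 probes was 0.77 within Lgr5-. Cmpk2, a mitochondrial nucleotide kinase gene next to Rsad2, had 1.42 and 0.83.

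Ifit3, another RNA-binding member of the Ifit family, did not follow the tuft marker. It stood at -1.98 in Lgr5+ tuft marker+ and -1.04 in Lgr5+ tuft marker- cells, and at 0.15 in Lgr5- tuft marker+ and -3.42 in Lgr5- tuft marker- cells. The tuft marker difference was -0.94 (error 0.24) within Lgr5+ and 3.57 (error 0.33) within Lgr5-. In Lgr5- tuft marker- cells Ifit3 was near that array's detection limit of -3.69. After normexp the differences of Ifit3 were -0.25 and 1.57. Its near-identical copy Ifit3b, from the list of other interferon-induced genes, had 1.39 and 1.45. The neighbouring Ifit2 had 0.45 and 1.52. Probes of such close relatives can bind each other's transcripts, which was not examined, so the values of single Ifit, Oas, Gbp and Ifitm genes are uncertain in this respect.

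Among the regulators of the type I response, Irf7, the factor that amplifies type I interferon production, was 1.25 higher within Lgr5+ and 0.68 higher within Lgr5- in tuft marker+ cells. Its second probe gave 0.995 and 0.87. Stat2 had 1.10 and 0.55 on its brightest probe and -1.09 and -0.10 on its other probe. Irf9, a DNA-binding partner of Stat2, stood at 0.17 in Lgr5+ tuft marker+ and -0.14 in Lgr5+ tuft marker- cells, and at -0.21 in Lgr5- tuft marker+ and -0.08 in Lgr5- tuft marker- cells. On this probe all 4 arrays lay within 0.38 of each other. The second Irf9 probe gave 0.02 and 0.49 for the tuft marker, and 1.01 for Lgr5+ over Lgr5- within tuft marker-.

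Of the interferon gamma-led class, the genes higher in both pairs were mainly guanylate-binding proteins (Gbp), GTPases that attack the vacuoles of intracellular microbes. Gbp2 stood at -0.42 in Lgr5+ tuft marker+ and -3.64 in Lgr5+ tuft marker- cells, and at 0.86 in Lgr5- tuft marker+ and -2.25 in Lgr5- tuft marker- cells. These differences were 3.21 (error 0.34) and 3.11 (error 0.24), or 9.26-fold and 8.61-fold, and 1.38 and 1.85 after normexp. Gbp3 stood at -1.09 in Lgr5+ tuft marker+ and -4.40 in Lgr5+ tuft marker- cells, and at 0.21 in Lgr5- tuft marker+ and -5.80 in Lgr5- tuft marker- cells. Neither tuft marker- array was above background for Gbp3, so that with the tuft marker it was at least 6.82-fold higher within Lgr5+ cells and at least 14.9-fold in Lgr5- cells. Gbp7 stood at 1.59 in Lgr5+ tuft marker+ and 0.05 in Lgr5+ tuft marker- cells, and at 2.74 in Lgr5- tuft marker+ and 0.40 in Lgr5- tuft marker- cells. It was above background on all 4 arrays and differed by 1.54 (error 0.21) and 2.33 (error 0.20).

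The remaining Gbp genes did not share this pattern. Gbp4 stood at -4.44 in Lgr5+ tuft marker+ and -3.56 in Lgr5+ tuft marker- cells, and at -1.13 in Lgr5- tuft marker+ and -5.80 in Lgr5- tuft marker- cells. It was not above background in Lgr5+ tuft marker+ cells or in Lgr5- tuft marker- cells, so it was at least 2.55 higher within Lgr5- and had no usable difference within Lgr5+. Gbp5, which lies next to Gbp7, differed by 0.06 within Lgr5+ and 0.59 within Lgr5-. Gbp6 was above background on no array. Gbp5, Gbp7 and Gbp3 are direct neighbours in that order, and Gbp2 follows Gbp3 with 1 gene between them, so neighbours in this cluster differed from each other.

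Of the immunity-related GTPases, which act beside the Gbp proteins, Iigp1 stood at -1.87 in Lgr5+ tuft marker+ and -2.98 in Lgr5+ tuft marker- cells, and at -1.28 in Lgr5- tuft marker+ and -3.64 in Lgr5- tuft marker- cells. It was 1.12 (error 0.30) higher within Lgr5+ and at least 2.36 higher within Lgr5-. Igtp and Irgm1 stayed under 2-fold, between -0.15 and 0.64.

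The transcription factor Irf1, which interferon gamma induces directly, stood at 3.50 in Lgr5+ tuft marker+ and 2.53 in Lgr5+ tuft marker- cells, and at 3.25 in Lgr5- tuft marker+ and 2.74 in Lgr5- tuft marker- cells. Its differences were 0.97 (error 0.20) and 0.51 (error 0.20), and a second probe gave -0.87 and -0.72. Irf8, a factor of myeloid and dendritic cells, stood at 1.55 in Lgr5+ tuft marker+ and 0.74 in Lgr5+ tuft marker- cells, and at 0.83 in Lgr5- tuft marker+ and 1.21 in Lgr5- tuft marker- cells. It was 0.82 (error 0.20) higher within Lgr5+ and lower by 0.38 (error 0.20) within Lgr5-, so the 4 arrays overlapped across the tuft marker.

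Side by side, both classes exceeded the share of all genes in each pair. Within Lgr5+, 15 of 24 type I-led genes (62.5%) and 4 of 10 interferon gamma-led genes (40%) were 2-fold higher, with medians of 1.20 and 0.97. Within Lgr5-, the counts were 11 of 24 (45.8%) and 5 of 10 (50%), with medians of 0.87 and 1.46. The median of the gamma-led class within Lgr5- is the midpoint between Gbp5 (0.59) and Gbp7 (2.33), and it was 2.33 without Irf8. In both pairs at once 7 of 24 (29.2%) and 4 of 10 (40%) passed. The classes were not compared by a test.

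**Figure D3:**
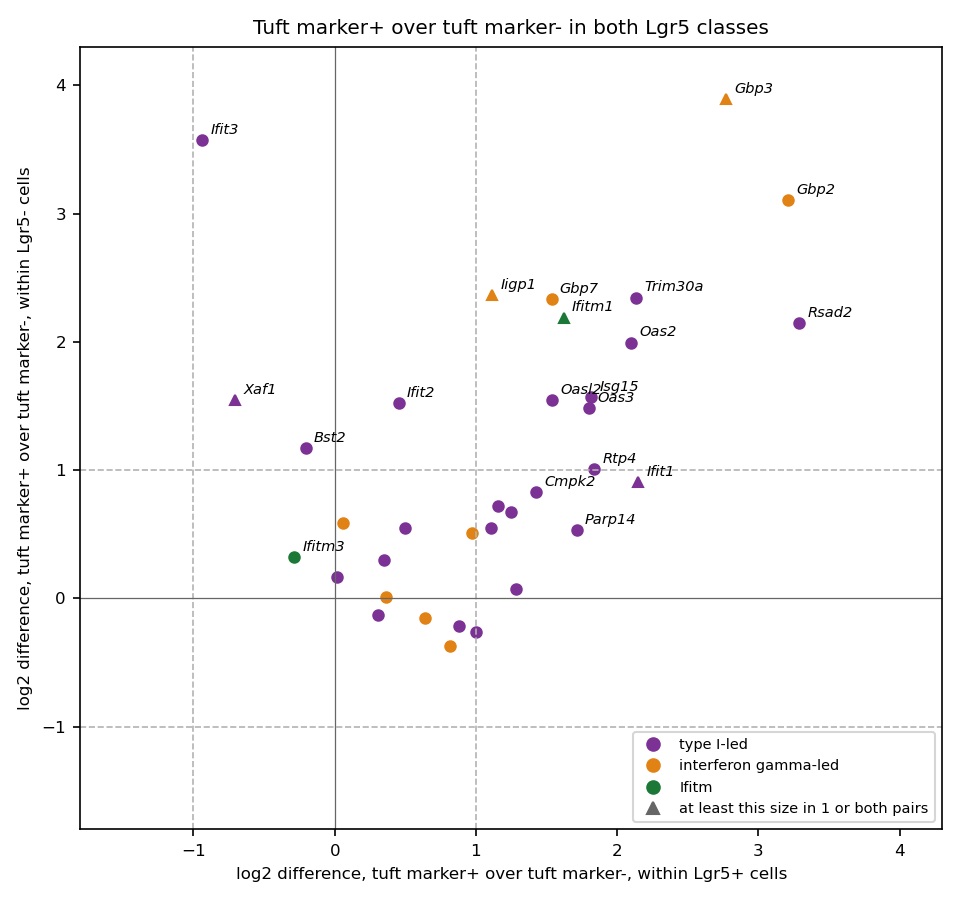
Log2 difference of tuft marker+ over tuft marker- cells within Lgr5+ (horizontal) and within Lgr5- (vertical) for the 35 genes with a value in both pairs, coloured by class, with dashed lines at 2-fold and triangles where a difference is at least the size shown. The 12 genes at the upper right passed 2-fold in both pairs, none lies below -1 on either axis, and Ifit3 lies at -0.94 and 3.57.

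The Ifitm genes encode small membrane proteins that block the entry of viruses. Ifitm1 stood at -2.24 in Lgr5+ tuft marker+ and -4.62 in Lgr5+ tuft marker- cells, and at -0.84 in Lgr5- tuft marker+ and -3.03 in Lgr5- tuft marker- cells. It was not above background in Lgr5+ tuft marker- cells and was at least 1.62 higher within Lgr5+ and 2.19 (error 0.28) higher within Lgr5-. Its direct neighbour Ifitm3 stood at 3.16 in Lgr5+ tuft marker+ and 3.44 in Lgr5+ tuft marker- cells, and at 2.93 in Lgr5- tuft marker+ and 2.61 in Lgr5- tuft marker- cells. Ifitm3 differed by -0.29 (error 0.20) and 0.32 (error 0.20), and was the only one of the 30 genes highest in Lgr5+ tuft marker- cells.

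Between Lgr5+ and Lgr5- cells the interferon-induced genes differed less. Within tuft marker+ cells 1 of 36 genes was at least 2-fold higher in Lgr5+ cells, where 9% of all genes were, and 9 (25%) were 2-fold lower, where 11.5% were. Within tuft marker- cells 1 of 35 was higher, where 6.58% of all genes were, and 5 (14.3%) were lower, where 5.33% were. The medians were -0.11 and -0.30, beside -0.06 and 0.01 for all genes. Only Gbp2 was 2-fold lower in Lgr5+ cells in both pairs, by 1.28 (error 0.21) and 1.39 (error 0.36), where 0.597% of all genes were, and none was 2-fold higher in both, where 0.744% were.

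By class, 4 of 24 type I-led and 4 of 10 interferon gamma-led genes were 2-fold lower in the Lgr5+ population of tuft marker+ cells, with medians of -0.02 and -0.47. The median of the type I-led class turned to 0.20 with arrays scaled to their median and to 0.01 after quantile normalisation. The 9 lower genes were Gbp2, Gbp3, Gbp4, Gbp7, Ifitm1, Ifit2, Ifit3, Bst2 and Xaf1, all named after their values were seen, and the higher one was Usp18, which removes Isg15 from proteins, at 1.08 (error 0.28). Gbp4 was lower by at least 2.28 and Xaf1 by at least 2.07, but the mean of both Xaf1 probes was 0.53, higher in Lgr5+ cells. Within tuft marker-, 4 of 24 type I-led and 1 of 9 gamma-led genes were lower, namely Ifit1, Rsad2, Parp14, Cmpk2 and Gbp2, and Ifit3 was higher. Ifit3 was thus 2-fold apart in opposite directions, as 2.52% of all genes were. The medians were -0.35 and -0.20. The second Rsad2 probe gave 1.24 within tuft marker-, past 2-fold in the opposite direction, and that of Parp14 gave -0.34. After normexp 0 genes were 2-fold higher and 0 lower within tuft marker-, where 0.767% and 0.962% of all genes were, and 3 were lower within tuft marker+, where 2.22% were.

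Markers of other cell types differed between Lgr5+ and Lgr5- cells as well. Within tuft marker+, 9 of 18 macrophage markers and 7 of 9 stromal markers were 2-fold lower in Lgr5+ cells, with medians of -1.01 and -1.91, and 7 of 14 T and NK cell markers were. Within tuft marker-, 6 of 18 macrophage markers were lower and 2 higher, and 1 of 5 stromal markers was lower. Of all genes, 11.5% were 2-fold lower within tuft marker+ and 5.33% within tuft marker-. The part of these in the lower Gbp values was not tested.

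**Figure D4:**
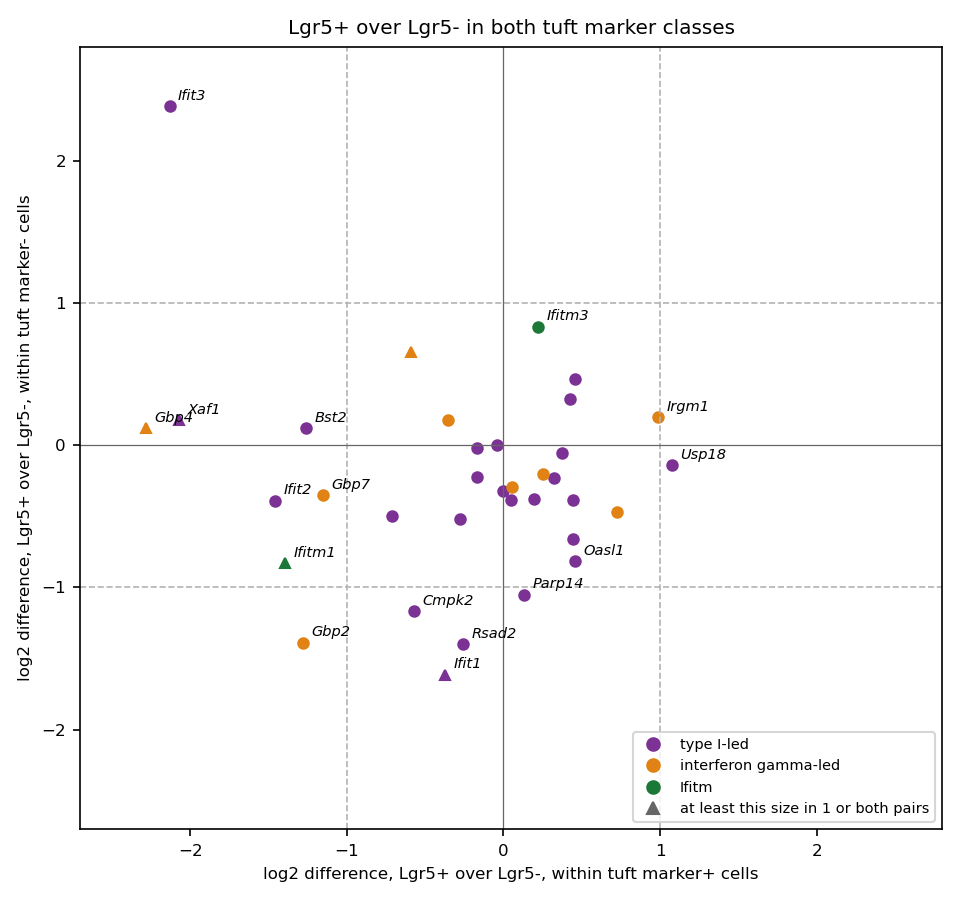
Log2 difference of Lgr5+ over Lgr5- cells within tuft marker+ (horizontal) and within tuft marker- (vertical) for the interferon-induced genes measured in both pairs, coloured by class, with dashed lines at 2-fold and triangles where the difference is at least the size shown. Only Gbp2 lies past 2-fold in the same direction in both pairs, and Ifit3 lies at -2.13 and 2.38, past 2-fold in opposite directions.

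Upstream of these genes, 15 of 18 interferon ligand genes had a probe, of which 8 were measured in the Lgr5+ pair and 10 in the Lgr5- pair. Ifng, for interferon gamma, was the only one 2-fold higher with the tuft marker in both, and Ifna1 the only one 2-fold lower, within Lgr5+, a gene singled out after its value was seen. Of all genes, 10.5% were 2-fold higher within Lgr5+, 16.5% within Lgr5- and 4.84% in both, and 8.25% were lower within Lgr5+. Ifng stood at -2.12 in Lgr5+ tuft marker+ and -4.13 in Lgr5+ tuft marker- cells, and at -1.17 in Lgr5- tuft marker+ and -5.74 in Lgr5- tuft marker- cells. Neither tuft marker- array was above background for it, so it was at least 1.73 and at least 2.52 higher. Ifnb1, for interferon beta, was above background only in Lgr5- tuft marker+ cells, at -3.38.

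Of 10 receptor and signalling genes, 3 were 2-fold higher with the tuft marker within Lgr5+, where 10.5% of all genes were. Within Lgr5-, 1 was higher and 2 lower, where 16.5% and 12.4% of all genes were. Ifnar2, a chain of the type I receptor, was the only one higher in both, by 3.29 and 1.74, and the lower ones within Lgr5- were Ifnlr1 and the kinase gene Tyk2, named after their values were seen. The other chain, Ifnar1, had -0.14 and 0.95. The interferon gamma receptor genes Ifngr1 and Ifngr2 had 1.03 and 0.57 within Lgr5+ and 0.20 and -0.21 within Lgr5-. Ifnlr1, the chain specific to interferon lambda, was 1.38 higher within Lgr5+ and lower by 1.08 within Lgr5-.

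Among genes that sense nucleic acids, 4 of 17 were 2-fold higher with the tuft marker in the Lgr5+ pair and 5 of 16 in the Lgr5- pair. Those higher in both pairs were Ifi204, a mouse DNA sensor (at least 5.35, and 5.36), Irf5, a factor downstream of Toll-like receptors (at least 4.93 and at least 3.72), and Dhx58, a regulator of RNA sensing (1.48 and at least 1.29). Of 10 genes listed here as inhibitors of the pathway, 4 were 2-fold higher in each pair. In both pairs these were the phosphatase genes Ptpn6 (2.97 and 3.48) and Ptpn1 (1.60 and 1.25) and the suppressor Socs3 (1.92 and 1.25). The other was Irf2 within Lgr5+ (1.32) and Isg20 within Lgr5- (1.92), both named after their values were seen. No gene of either list was 2-fold lower with the tuft marker. Of all genes, 10.5% were 2-fold higher within Lgr5+, 16.5% within Lgr5- and 4.84% in both. Being 2-fold lower applied to 8.25% and 12.4% of them.

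A further 46 measured interferon-induced genes, outside the 40, were counted apart. Their list was also chosen with earlier results of these data known, and it holds close relatives of the 40, such as Ifit3b and Gbp8. Of these, 14 (30.4%) were 2-fold higher with the tuft marker within Lgr5+ and 19 (41.3%) within Lgr5-, where 10.5% and 16.5% of all genes were. Against these, 0 and 1 were lower (Ido1, named after its value was seen), and the medians were 0.52 and 0.73. By the smaller of their differences in the pairs, the largest were Ifi205, of the same family as Ifi204 (at least 2.86 and at least 4.57), the chemokine gene Cxcl10 (at least 2.70, and 3.12), Cd274, for the checkpoint ligand PD-L1 (2.50 and 3.75), and Ifi27 (2.19 and 2.07). The other Ifi205 probe was above background on both tuft marker- arrays, where the brightest was not. Values of the dimmer probes of Ifi205, Ifi27, Ifnar2, Ptpn1 and Ptpn6 are not given here. Between Lgr5+ and Lgr5- cells, Herc6, the mouse enzyme that attaches Isg15, was 2-fold lower in Lgr5+ cells in both pairs, by 1.15 and at least 1.17.

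Genes with several probes showed how far the values rest on the choice of probe. Of the 37 genes 12 had 2 or more probes. Within Lgr5+, 4 of 11 comparisons of a dimmer with the brightest probe gave opposite signs for the tuft marker difference, beside 45.2% over all genes. Within Lgr5-, 7 of 11 did, beside 30.0%. Those 7 were for Stat2, Irf1, Irf9, Parp14, Oasl1 and both dimmer probes of Irgm1, with values between -0.27 and 0.55 on the brightest probe. For the Lgr5 differences, 4 of 12 and 6 of 11 had opposite signs, beside 34.9% and 36.2%. Of the 12 genes higher in both pairs, only Rsad2 and Oas2 had a second probe. That of Oas2 stood at -1.86 in Lgr5+ tuft marker+ and -3.67 in Lgr5+ tuft marker- cells, and at -1.25 in Lgr5- tuft marker+ and -5.79 in Lgr5- tuft marker- cells, and neither tuft marker- value was above background.

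**Figure D5:**
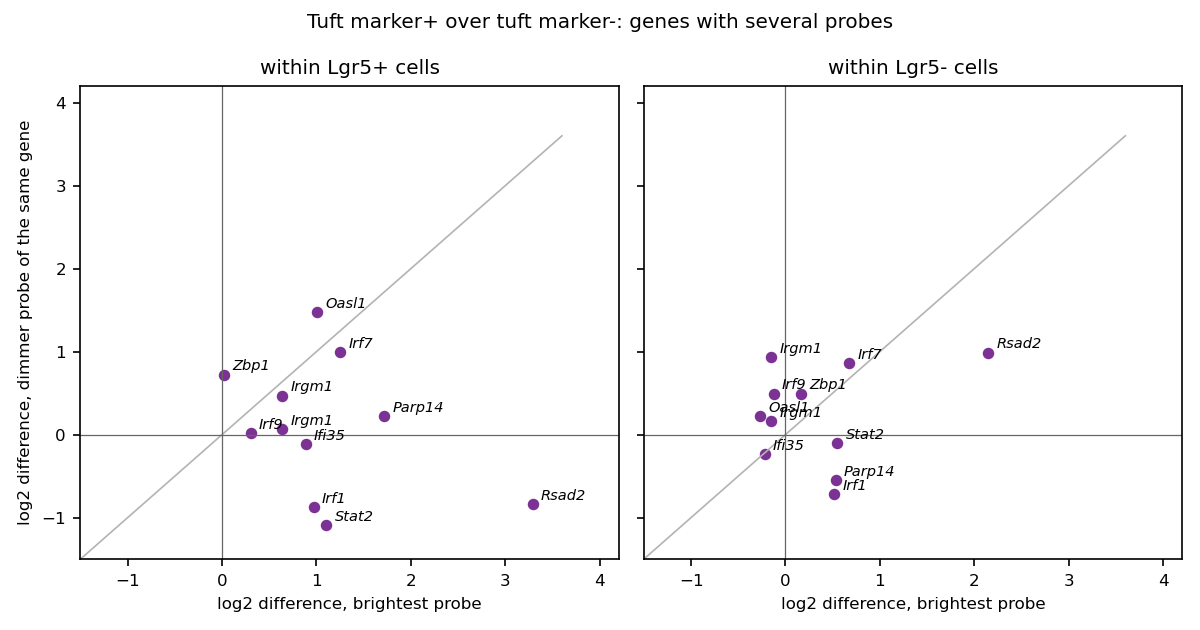
Tuft marker+ over tuft marker- log2 difference on the brightest probe (horizontal) and on each dimmer probe of the same gene (vertical), within Lgr5+ (left) and within Lgr5- (right) cells, with a line of equality. Irf7 lies near the line in both panels, while the dimmer probes of Rsad2, Stat2 and Irf1 lie below 0 in the left panel at -0.83, -1.09 and -0.87.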

How the data were processed

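RNA of 4 sorted populations, 1 array each, was measured on one-colour (Cy3) Agilent arrays, all on 1 slide and in 1 scan. The deposited scanner files hold spot intensity values that Agilent Feature Extraction (12.0.3.1 per the file headers, 11.5.1.1 per the submitters' processing notes) had background-subtracted and detrended within each array, with flags for spots above background. The authors' deposited value table was that intensity multiplied by 1 constant per array (7.82 to 11.93), on a linear scale and not centred by gene, with column medians, among Lgr5+ cells, of 279 (tuft marker+) and 286 (tuft marker-), and among Lgr5- cells of 365 (tuft marker+) and 253 (tuft marker-). No source used here gives the purpose of the constants.

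Control spots and outlier spots (91 to 122 per array) were left out, and no spot was saturated. The log2 signal minus the array's 75th percentile was averaged over copies of a probe. Unversioned accessions matched 32994 of 56605 probes to genes of a RefSeq table (GRCm38.p6), and the other 23611 were unnamed here. Differences are log2 units, with 1 equal to 2-fold. A value not well above background was raised to the lowest level well above background on its array, if higher than its own, and gave a lower limit in size, or no difference where the limit pointed the other way. Medians include such limits. Scanner errors were carried to the log2 scale. Signals of 300 probes printed 10 times differed by an SD of about 0.05 to 0.06 within an array. The number of arrays limits the precision, and there was no test.

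Alternatives were other scalings, the authors' values, quantile normalisation and normexp (limma 3.58.1, R 4.3.3, offset 50), other detection rules, the mean of all probes, and Irf8 or the Ifitm class changed. Normexp was planned on the mean spot signal, and the median spot signal was used as the column present. Other steps used Python 3.11.15, numpy 2.4.6 and pandas 2.3.3, and were tested on simulated data.

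The genes and all lists were chosen with earlier results of these data known. Levels on all arrays are given for genes at least 2-fold apart in the same direction in both tuft marker or both Lgr5 pairs, for the widest-ranging genes of each class, and for the Ifitm genes, Irf1, Irf8 and Irf9. From pathway lists, up to 4 genes 2-fold apart in both pairs, Ifng, Ifnb1 and the interferon receptors are named, and from marker lists the first genes. Further pathway genes are named after their values were seen, where the text says so. Single values of some listed genes are not reported here. Motifs were searched in RefSeq windows of 300 bases.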

Additional observations from a re-analysis of the deposited data

Results flagged for a closer look

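Ifit3 differed between Lgr5+ and Lgr5- cells in opposite directions in the presence and absence of the tuft marker. Its level was lower by 2.13 on the log2 scale in Lgr5+ tuft marker+ than in Lgr5- tuft marker+ cells (a difference of -2.131), and higher by 2.383 in Lgr5+ tuft marker- than in Lgr5- tuft marker- cells. Each rests on 1 array a population, and the difference between them was not tested. Among all measured genes, 2.52% were 2-fold apart in opposite directions in these pairs. Over the alternatives, the first ranged from -2.30 to -1.11 and the second from 0.71 to 2.45. The 0.71, under 2-fold, was after normexp. In Lgr5- tuft marker- cells Ifit3 stood at -3.42, near that array's detection limit of -3.69.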

How the results depend on the processing

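No paired analysis was possible because each population had 1 array, and no array could be left out. Under none of the alternatives was an interferon-induced gene 2-fold lower with the tuft marker. No alternative took a dimmer probe alone, and the second Stat2 probe gave -1.09 within Lgr5+, past 2-fold lower. Of the summary values, 134 moved little and 27 moved more than the scanner error or 1.5 times. After normexp, 11 genes were 2-fold higher with the tuft marker within Lgr5+, 8 within Lgr5- and 7 in both, all 7 among the 12 (Gbp2, Gbp3, Gbp7, Isg15, Oas3, Rsad2 and Trim30a). The type I-led medians were then 0.80 and 0.54 and the gamma-led medians 0.69 and 0.59. Between Lgr5+ and Lgr5- cells, normexp left 0 higher and 3 lower within tuft marker+ (2.18% and 2.22% of all genes), and 0 higher and 0 lower within tuft marker- (0.767% and 0.962% of all genes). With arrays scaled to their median, the medians within Lgr5- were 0.63 (type I-led) and 1.23 (gamma-led), and those of Lgr5+ over Lgr5- within tuft marker+ 0.20 and -0.25, with 2 genes higher. With the authors' values the medians within Lgr5- were 1.16 and 1.76, and 0 genes were higher in Lgr5+ cells within tuft marker+, against 2 after quantile normalisation. The authors' values put 15 genes 2-fold higher with the tuft marker in both pairs. In the single pairs 11.6% (Lgr5+) and 24.9% (Lgr5-) of all genes were then higher. The gamma-led median within Lgr5- was 0.59 with the looser detection flag, 0.59 with no detection filter and 2.33 without Irf8. Genes higher in Lgr5+ cells within tuft marker- numbered 3 with the looser flag, 2 with no limit for dim values and 3 (with 3 lower) with the mean of all probes, under which Xaf1 turned to 0.53 within tuft marker+. The share of all 2-fold apart genes that were higher moved with the scaling. For the tuft marker within Lgr5- it was 57.2%, against 37.1% with the median and 79.2% with the authors' values, where the median of all measured genes was -0.16 and 0.39. For Lgr5 within tuft marker+ it was 43.9%, against 66.7% and 28.0%. The cause of these moves was not tested. Genes at the detection limit have limits only.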
